A study of Homo sapiens and Mus musculus with 29 samples.

Results

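The genes described here are 52 regulators and effectors of the cell cycle, chosen by symbol: cyclins, cyclin-dependent kinases (CDKs), CDC25 phosphatases, replication licensing and nucleotide supply genes, mitotic kinases and checkpoint genes, E2F-type transcription factors and CDK inhibitors. All 52 were found among 58719 gene IDs in RNA-seq data of human HPAF-II xenografts and, as mouse orthologs, among 54446 gene IDs in data of mouse KPC cell lines. HPAF-II is an established human pancreatic ductal adenocarcinoma line, and its tumors grew in the pancreas of NSG mice, an immunodeficient strain that lacks functional lymphocytes. The study asked what HNF4G and FOXA1, transcription factors of the ductal epithelium, do in primary tumors and metastases, and 29 libraries were used here, 21 from HPAF-II samples of 15 mice and 8 from KPC cultures.

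Every HPAF-II sample came from cells of the line injected into NSG mice that were killed at a humane endpoint. The 3 control tumors carried Cas9 and an empty vector. The 4 tumors labeled HNF4G-KO came from a pool of 3 CRISPR clones. The study reports these clones as knockouts, with heterozygous frameshift mutations checked by Sanger sequencing. The 3 FOXA1-OE tumors carried a lentiviral FOXA1 overexpression construct, and the 5 HNF4G-KO + FOXA1-OE tumors, of 4 mice, carried both changes, with tumors 2 and 3 from the same mouse. Metastases were sequenced from HNF4G-KO mice (2, both of the peritoneum, from the mice of tumors 2 and 4) and from HNF4G-KO + FOXA1-OE mice (4: metastasis 1 of the spleen and metastasis 2 of peritoneal fat from the mouse of tumor 1, metastasis 3 of peritoneal fat from a mouse with no tumor analysed here, and metastasis 4 of the peritoneum from the mouse of tumor 4). The KPC mouse is a genetically engineered model of pancreatic cancer, and its samples were 4 libraries of a cell line from a primary tumor and 4 of a line from a matched liver metastasis, all labeled wild type and untreated. The study's methods name 4 biological replicates for its RNA-seq. No label ties the KPC libraries to separate cultures, so p-values there measure only the spread between libraries of each line.

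A cell divides by passing through G1, S phase, G2 and mitosis, each driven by CDKs bound to their cyclins. D- and E-type cyclins with CDK4, CDK6 and CDK2 carry cells out of G1 and release E2F factors from the retinoblastoma protein, and E2F targets then load the MCM helicase and supply nucleotides for replication. Cyclin B with CDK1 starts mitosis, and CDK inhibitors such as p21, the product of CDKN1A, hold these kinases back.

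Levels are RPKM, reads scaled to transcript length and to the mapped reads of the library, so they can be compared between genes. The most abundant of the 52 over the 21 HPAF-II libraries was PCNA, the replication clamp, with a mean of 160.6 RPKM, followed by UBE2C, an E2 enzyme of the anaphase-promoting complex, with 125 RPKM. At the other end CCND2, cyclin D2, had a mean of 0.0383 RPKM and at most 0.333 RPKM in a library, and it was not tested. The other 51 genes passed the filter of a mean of at least 1 RPKM, the lowest of them being CCNE2, cyclin E2, with 1.65 RPKM. In the KPC lines all 52 passed.

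Depth, worked out from the steps between RPKM values, was 33.1 to 69.6 M reads in HPAF-II libraries and 30.1 to 44.4 M reads in KPC libraries (M, mega). HNF4G mRNA was higher in tumors labeled HNF4G-KO, at 5.72 to 8.42 RPKM, than in control tumors, at 2.48 to 3.47 RPKM. This level does not show whether the frameshift mutations removed the protein, and the tumors are named by their label. FOXA1 mRNA was at 0.519 to 0.932 RPKM in control tumors, at 6.32, 8.18 and 0.763 RPKM in FOXA1-OE tumors 1 to 3, and at 4.65 to 23.1 RPKM in HNF4G-KO + FOXA1-OE tumors, so that FOXA1-OE tumor 3 did not show the overexpression of its label. Of the 4 HNF4G-KO + FOXA1-OE metastases, only metastasis 2 had high FOXA1, with 17.9 RPKM, the others being at 0.535 to 1.55 RPKM. All 8 markers of ductal epithelium were present in every group. Of 14 stroma markers 8, among them DCN, LUM, PDGFRA, PECAM1 and PTPRC, stayed under 1 RPKM in every control and HNF4G-KO tumor, and the summed level of the 14 was 96.6 to 224 RPKM in control tumors and 62.3 to 86.7 RPKM in tumors labeled HNF4G-KO. Pancreas markers summed to 399 RPKM in control tumor 2 and to at most 34.4 RPKM in the other primary tumors.

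Tumors labeled HNF4G-KO had lower mRNA of mitosis genes than control tumors, and a higher level of the CDK inhibitor CDKN1A. Of the 18 mitosis genes 8 fell (CCNB1, AURKB, CDC20, UBE2C, CCNB2, BIRC5, CENPA and CDC25C), of the 12 S phase genes 2 fell (RRM2 and MCM5), and CDKN1A and CCNE2 rose. The proliferation markers MKI67 and TOP2A and the mitotic kinase gene CDK1 did not pass the test and had mean differences above 0. In bulk tumors, fewer cycling cells and less mRNA per cycling cell cannot be told apart.

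The test was limma across all genes with Benjamini-Hochberg adjustment, and a gene was called at an adjusted p under 0.05. By this rule 12 of 51 genes were called, 10 lower and 2 higher, against 12.2% of the 14269 genes tested (5.99% lower and 6.18% higher). The median log2 fold change was -0.55 over the mitosis genes, of which 15 of 18 lay below 0, and -0.36 over the S phase genes, of which 11 of 12 did. It was -0.33 over all 51 genes and 0.01 over all genes tested. Without overlap between the groups, 25 of the 51 genes were lower and 3 (CCNE2, E2F8 and CDKN1A) were higher in the tumors labeled HNF4G-KO, against 21.3% and 25.1% of all genes tested.

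**Figure D1:**
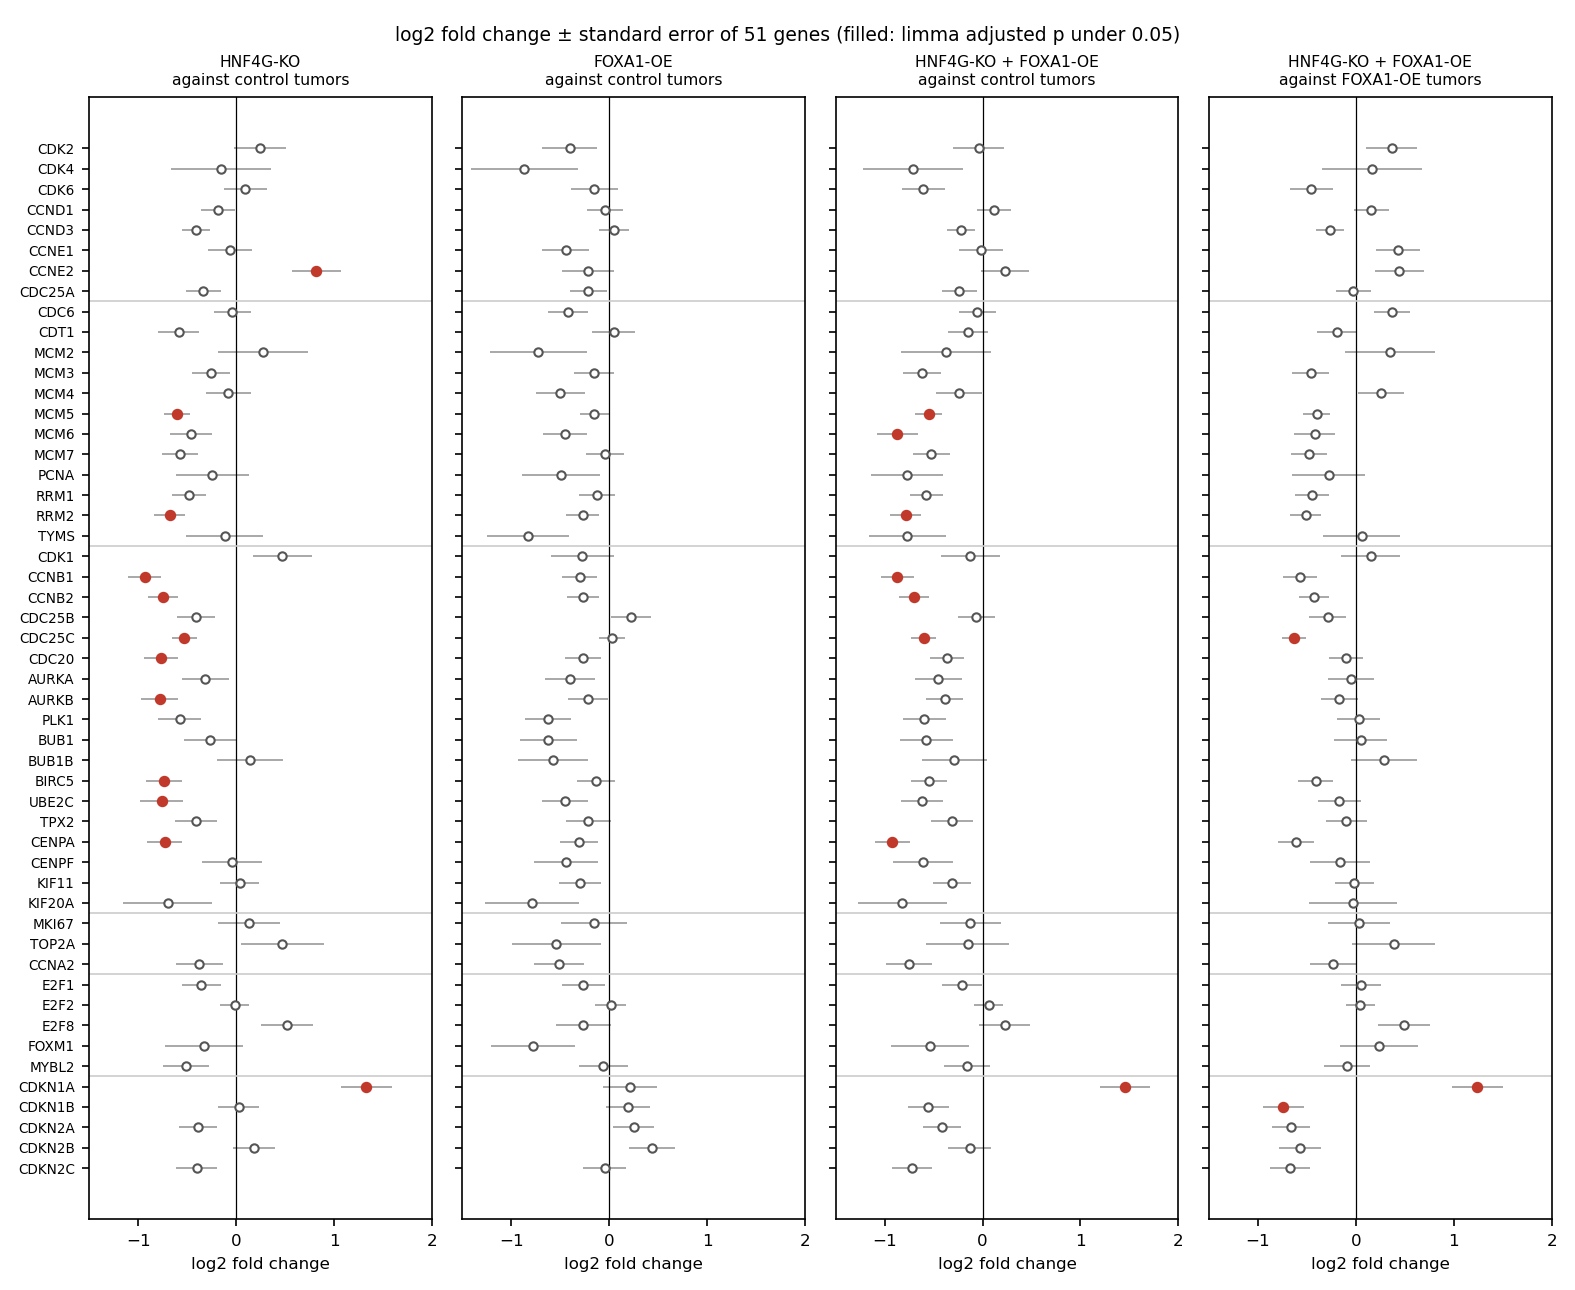
The log2 fold change (horizontal axis, with its standard error) of 51 genes in 4 comparisons of primary tumors, with filled points at a limma adjusted p under 0.05 and lines between the gene groups. Most mitosis and S phase genes lie left of 0 in the comparisons of tumors labeled HNF4G-KO and HNF4G-KO + FOXA1-OE with control tumors, with 12 and 8 filled points, while FOXA1-OE against control has none.

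Cyclin B1, the partner of CDK1 at mitotic entry, showed the largest fall. CCNB1 mRNA was at 89.1, 109 and 91.4 RPKM in control tumors 1 to 3 and at 47.2, 48.8, 53.7 and 50.3 RPKM in tumors 1 to 4 labeled HNF4G-KO. The highest of the latter lay below the lowest control tumor, and the means were 96.6 ± 11.0 (SD, n = 3) and 49.98 ± 2.78 RPKM (SD, n = 4). The log2 fold change was -0.93 (standard error 0.17, limma adjusted p = 0.0067). The two-sided exact permutation test gave p = 0.0571, the smallest that 3 against 4 tumors allow, here and for every gene whose groups did not overlap. Its relative CCNB2, cyclin B2, was at 26.0, 26.9 and 26.0 RPKM in control tumors and at 15.9, 16.3, 15.0 and 14.0 RPKM in tumors labeled HNF4G-KO (log2 fold change -0.75, standard error 0.15, limma adjusted p = 0.0106). These values kept the groups apart as well.

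CDC25C, a phosphatase that activates CDK1, was at 8.45, 8.45 and 9.23 RPKM in control tumors and at 5.57, 6.20, 6.05 and 5.17 RPKM in tumors labeled HNF4G-KO (log2 fold change -0.53, standard error 0.12, limma adjusted p = 0.0187). CDC20, an activator of the anaphase-promoting complex, was at 56.5, 71.3 and 66.2 RPKM against 44.3, 29.6, 36.7 and 40.5 RPKM (log2 fold change -0.77, standard error 0.17, limma adjusted p = 0.016). Both genes were lower in all 4 tumors labeled HNF4G-KO than in any control tumor. CENPA, the histone H3 variant that marks centromeres, was at 19.2, 18.5 and 18.3 RPKM against 11.8, 11.2, 10.1 and 10.4 RPKM, with no overlap (log2 fold change -0.73, standard error 0.18, limma adjusted p = 0.0228). AURKB and BIRC5, which act together in the chromosomal passenger complex, averaged 25.3 ± 2.53 and 27.9 ± 1.80 RPKM in control tumors (SD, n = 3) and 14.5 ± 2.53 and 16.5 ± 2.44 RPKM under the HNF4G-KO label (SD, n = 4). Their log2 fold changes were -0.78 and -0.74, with limma adjusted p = 0.0208 and 0.0226. UBE2C was at 175 ± 22.9 RPKM against 103 ± 10.6 RPKM (SD, n = 3 and n = 4), with a log2 fold change of -0.76 (limma adjusted p = 0.0386). None of these groups overlapped.

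Not every mitosis gene was lower. CDK1 mRNA was at 22.2, 26.4 and 22.0 RPKM in control tumors and at 27.9, 45.8, 40.4 and 22.7 RPKM in tumors labeled HNF4G-KO, so that its groups overlapped and tumors 2 and 3 were the highest (log2 fold change 0.47, limma adjusted p = 0.304). MKI67, which encodes the antigen Ki-67, was at 34.6, 31.2 and 22.4 RPKM against 28.2, 27.9, 34.0 and 38.2 RPKM (log2 fold change 0.13, limma adjusted p = 0.8). TOP2A, the topoisomerase that untangles sister chromatids, was at 29.6, 22.9 and 16.4 RPKM against 29.1, 34.3, 32.2 and 30.3 RPKM (log2 fold change 0.47, limma adjusted p = 0.472). All 3 genes had overlapping groups. Their exon lengths, 3909 bases for CDK1, 12845 for MKI67 and 6374 for TOP2A, exceeded those of CCNB1 (2433) and CCNB2 (2753). RRM2 (9153) and MCM5 (7268), which fell as well, were longer than CDK1 and TOP2A. These lengths join all annotated exons of a gene and are not those of the mRNA measured.

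Short stretches of promoter are shown because S phase and mitosis genes are known to differ there: promoters of many mitosis genes hold a cell cycle homology region (CHR, with the core TTTGAA) and CCAAT boxes, while those of many S phase genes hold E2F sites (searched as TTTNGCGC). The sequences are the 150 bases before the start site from RefSeq (GRCh38.p14), read 5′ to 3′ on the strand of the gene, with matches to these 3 motifs on either strand in capitals. CDC25C has 4 such start sites and RRM2 has 2, and for both the stretch with the most matches is shown, a choice that favors motifs. The first 6 genes fell in tumors labeled HNF4G-KO, and MCM6, a subunit of the MCM helicase, is given for its E2F motifs. AURKB, which also fell and is not printed, had no TTTGAA at either of its 2 start sites. They lie at chr5:69167000-69167149 (plus strand, CCNB1), chr15:59104996-59105145 (plus strand, CCNB2), chr1:43358831-43358980 (plus strand, CDC20), chr2:26785906-26786055 (plus strand, CENPA), chr5:138331805-138331954 (minus strand, CDC25C), chr2:10122589-10122738 (plus strand, RRM2) and chr2:135876444-135876593 (minus strand, MCM6).
CCNB1: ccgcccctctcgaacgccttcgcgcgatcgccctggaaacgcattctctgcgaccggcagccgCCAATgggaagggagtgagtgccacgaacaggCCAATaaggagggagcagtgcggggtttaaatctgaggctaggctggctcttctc
CCNB2: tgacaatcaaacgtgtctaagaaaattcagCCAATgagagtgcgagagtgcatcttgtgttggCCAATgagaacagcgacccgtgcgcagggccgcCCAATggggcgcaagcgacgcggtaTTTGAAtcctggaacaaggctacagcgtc
CDC20: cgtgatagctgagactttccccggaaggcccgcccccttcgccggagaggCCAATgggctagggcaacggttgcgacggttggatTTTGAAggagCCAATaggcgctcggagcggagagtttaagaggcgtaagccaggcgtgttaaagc
CENPA: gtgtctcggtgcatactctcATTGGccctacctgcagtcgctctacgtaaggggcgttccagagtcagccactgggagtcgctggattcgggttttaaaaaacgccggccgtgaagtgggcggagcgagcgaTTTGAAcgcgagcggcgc
CDC25C: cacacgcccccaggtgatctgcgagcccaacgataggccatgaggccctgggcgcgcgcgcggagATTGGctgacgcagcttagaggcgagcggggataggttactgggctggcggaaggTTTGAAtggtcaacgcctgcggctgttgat
RRM2: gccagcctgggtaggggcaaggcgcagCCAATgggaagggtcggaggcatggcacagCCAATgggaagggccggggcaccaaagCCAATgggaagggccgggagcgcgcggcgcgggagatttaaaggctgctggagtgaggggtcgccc
MCM6: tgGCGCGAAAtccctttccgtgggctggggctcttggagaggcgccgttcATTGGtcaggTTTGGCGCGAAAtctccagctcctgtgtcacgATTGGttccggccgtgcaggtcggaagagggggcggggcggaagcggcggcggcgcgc

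CCNB1 has CCAAT at 2 places and no TTTGAA in this window, and RRM2 has CCAAT 3 times. In CCNB2, CDC20, CENPA and CDC25C, TTTGAA stands with CCAAT, the latter read on the other strand as ATTGG in CENPA and CDC25C. In MCM6 the E2F motif is found 3 times, of which 2 overlap on opposite strands. RefSeq windows, from 250 bases before to 50 after the start, were at hand for 40 of the 52 genes and 27305 genes in all. They held TTTGAA in 9 of 14 mitosis genes, 1 of 10 S phase genes and 18.2% of all genes. CCAAT was found in 13 of 14, 7 of 10 and 39.7%, and TTTNGCGC in 1 of 14, 6 of 10 and 2.17%. Among mitosis genes, TTTGAA was in 4 of the 6 that fell and in 5 of the 8 that were not called, and none of the 5 CDK inhibitors held it. A match is a description of letters and not a measured binding site. No window was at hand for CDK2, CCND1, CCND2, CCNE2, MCM4, MCM5, AURKA, BIRC5, UBE2C, TPX2, E2F8 and FOXM1.

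Among the S phase genes RRM2, the small subunit of ribonucleotide reductase, was at 34.5, 40.5 and 28.4 RPKM in control tumors and at 21.9, 20.1, 22.3 and 19.6 RPKM in tumors labeled HNF4G-KO. All 4 of the latter were lower than every control tumor (log2 fold change -0.68, standard error 0.16, limma adjusted p = 0.0186). MCM5, another subunit of the MCM helicase, was at 12.4, 12.2 and 12.2 RPKM against 8.10, 7.54, 6.97 and 8.29 RPKM, again without overlap (log2 fold change -0.60, standard error 0.14, limma adjusted p = 0.016). MCM2 and PCNA overlapped between the groups, with log2 fold changes of 0.27 and -0.24 (limma adjusted p = 0.719 and 0.691).

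CDKN1A, which encodes p21, showed the largest rise. It was at 34.9, 26.4 and 22.8 RPKM in control tumors and at 83.7, 64.5, 63.3 and 74.5 RPKM in tumors labeled HNF4G-KO. Every tumor of the latter group was above every control tumor, and the means were 28.0 ± 6.24 (SD, n = 3) and 71.5 ± 9.57 RPKM (SD, n = 4), and the log2 fold change was 1.33 with a standard error of 0.26 (limma adjusted p = 0.00883). The other 4 CDK inhibitors were not called, CDKN2A, which encodes p16 and p14ARF, being at 57.4, 68.9 and 63.3 RPKM against 39.3, 52.4, 48.5 and 52.2 RPKM (log2 fold change -0.39, limma adjusted p = 0.191). CCNE2, cyclin E2, was low throughout, at 1.44, 1.09 and 0.636 RPKM against 2.08, 3.43, 3.01 and 2.01 RPKM (log2 fold change 0.82, standard error 0.25, limma adjusted p = 0.0468). Its paralog CCNE1 and cyclin D1 (CCND1) had log2 fold changes of -0.06 and -0.18 (limma adjusted p = 0.877 and 0.5). Cyclin D3 (CCND3) lay below the control tumors in all 4 tumors labeled HNF4G-KO but was not called (log2 fold change -0.41, limma adjusted p = 0.0801). E2F8, an atypical E2F that represses transcription, had no overlap between groups but was not called (log2 fold change 0.52, limma adjusted p = 0.196).

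**Figure D2:**
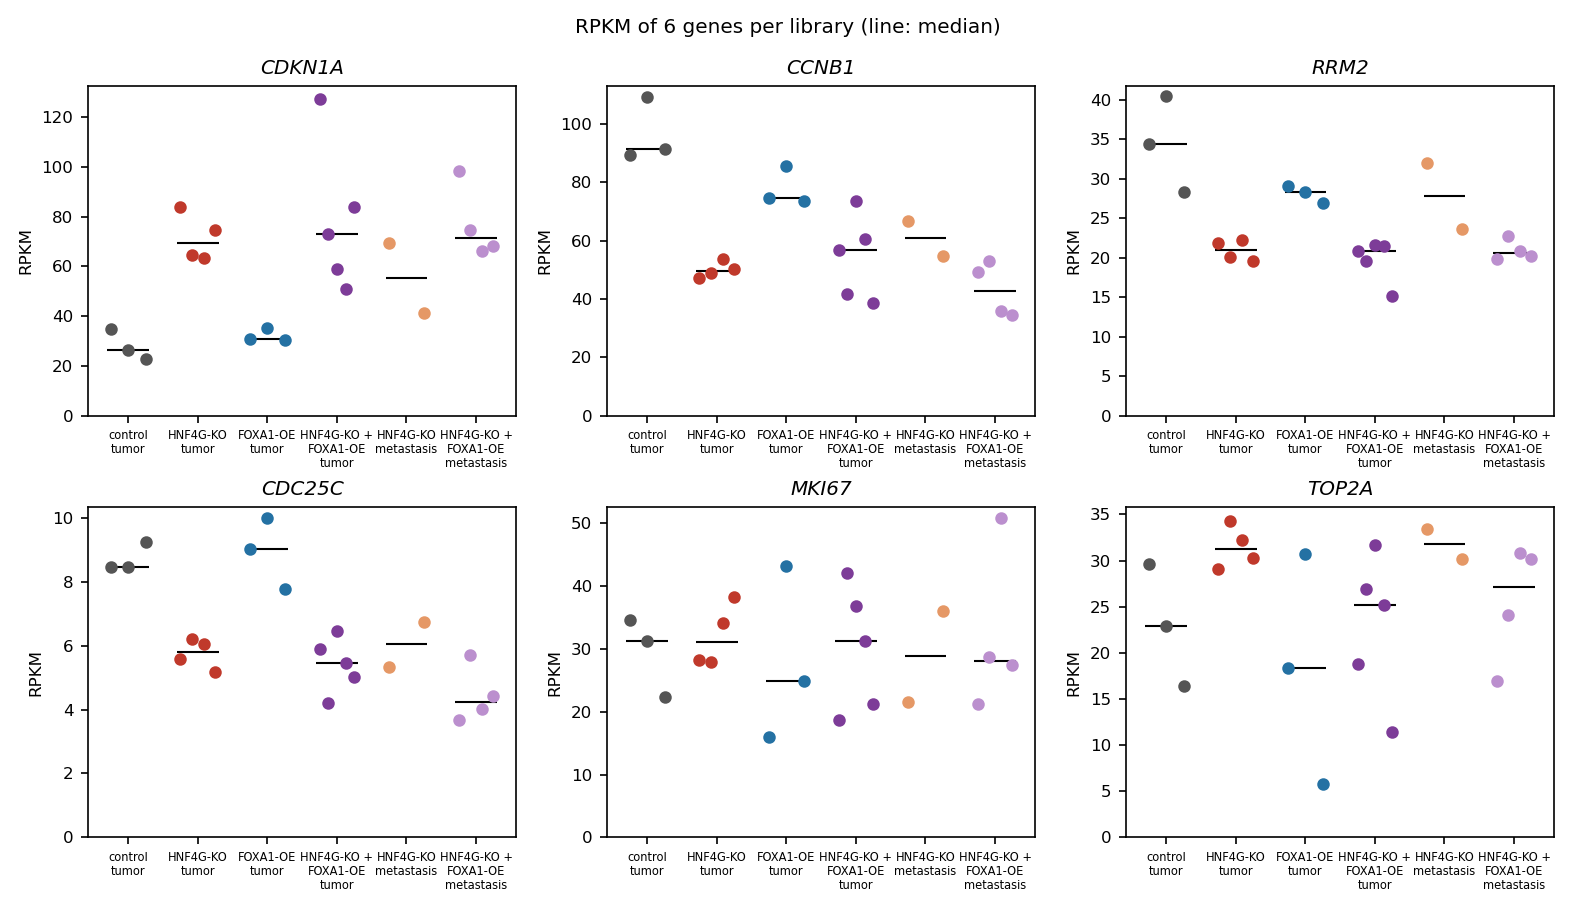
RPKM (vertical axes, from 0) of CDKN1A, CCNB1, RRM2, CDC25C, MKI67 and TOP2A in each of the 21 HPAF-II libraries by group, with a line at the group median. The 4 tumors labeled HNF4G-KO lie above the control tumors for CDKN1A, below them for CCNB1, RRM2 and CDC25C, and overlap with them for MKI67.

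Wider lists of the cell cycle are given beside the 5.99% lower and 6.18% higher over all genes. Of 28 other genes of replication 4 fell and none rose, the largest fall being that of CHAF1B, a histone chaperone subunit at the replication fork (log2 fold change -1.01, limma adjusted p = 0.00175), with a list median of -0.30. Of 36 other mitosis genes 5 fell and none rose, led by PTTG1, which encodes securin (-1.15, limma adjusted p = 0.000848), with a median of -0.19 and 15 of the 36 above 0. Of 20 measured regulators around RB and the DREAM complex 1 rose, RBL2, a pocket protein of the RB family (1.04, limma adjusted p = 0.0498), and 2 fell, PKMYT1, a kinase that inhibits CDK1, having the larger change (-0.81, limma adjusted p = 0.0468), with a median of 0.07.

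The calls rested on few tumors. Leaving out 1 tumor at a time left 2 to 10 of the 51 genes called, 2 without control tumor 2 (CCNB1 and CDKN1A), 4 without control tumor 3, and 6 without tumor 2, 3 or 4 labeled HNF4G-KO, and CCNB1 and CDKN1A were called each time. The calls over all genes fell too, to between 284 of 14222 (without control tumor 2) and 1165 of 14264 (without control tumor 1). The tumors labeled HNF4G-KO also differed from the control tumors along exon length. The Spearman correlation across genes of a tumor's deviations with exon length was 0.29 to 0.43 in the tumors labeled HNF4G-KO and -0.26 to 0.03 in control tumors. Among the 51 genes the median exon length was 2593 bases for the 10 that fell and 4135 bases for the 39 not called, and log2 fold change and length had a Spearman correlation of 0.42 across these genes and of 0.36 across all genes. With each tumor's trend on length and GC content removed, an alternative chosen after seeing the data, 14 of the 51 genes were called (2 higher and 12 lower), 10 of them among the 12 named above, against 14.4% of all genes. CENPA and UBE2C were then no longer called. All 6 stroma markers tested had log2 fold changes below 0 (median -1.04), with VIM called (-1.36, limma adjusted p = 0.00255), and their part in the falls was not tested.

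With FOXA1 overexpression alone, no gene of the cell cycle was called by this test, which does not show that none changed. FOXA1-OE tumors were spread widely in their mean levels of S phase and of mitosis genes. Tumor 2 stood near the control tumors, tumor 1 below them, and tumor 3, which lacked the FOXA1 rise, far below. Not every gene followed this order: MCM7, CDT1, BIRC5 and MYBL2, for example, were above all control tumors in tumor 3. None of the 51 genes was called by limma against control tumors, against 0% of all genes tested (0 of 14269, with 652, or 4.57%, at an unadjusted p under 0.05, of which 1 was among the 51). The median log2 fold change was -0.35 over S phase genes, -0.30 over mitosis genes and 0.21 over CDK inhibitors, beside -0.03 over all genes.

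In FOXA1-OE tumors 1 to 3, CDK4, the kinase partner of D-type cyclins, was at 24.0, 25.7 and 3.54 RPKM, beside 24.6 to 26.4 RPKM in control tumors (log2 fold change -0.87, limma adjusted p = 0.84). TYMS, thymidylate synthase, was at 5.07, 8.51 and 1.05 RPKM beside 6.84 to 9.45 RPKM, and KIF20A, a mitotic kinesin, at 13.6, 29.6 and 4.92 RPKM beside 19.6 to 25.8 RPKM (log2 fold changes -0.83 and -0.79, limma adjusted p = 0.84 for both). For each of these 3 genes tumor 3 was the lowest of all 15 primary tumors. CCNB1, UBE2C and CENPA lay below the control tumors in all 3 FOXA1-OE tumors, against 3.55% of all genes tested. CCNB1 was at 74.5, 85.6 and 73.6 RPKM (log2 fold change -0.30, limma adjusted p = 0.84, two-sided exact permutation p = 0.1, the smallest for 3 against 3). CDKN1A, at 30.9, 35.4 and 30.3 RPKM, overlapped with the control tumors (log2 fold change 0.21, limma adjusted p = 0.856), as did MKI67, TOP2A, CDK1, CCNE1, MCM2, PCNA and CCND1, whose log2 fold changes ran from -0.72 for MCM2 to -0.04 for CCND1. CDKN2B, which encodes p15, had the highest log2 fold change, 0.44, at 13.4 to 19.0 RPKM beside 10.8 to 12.2 RPKM in control tumors (limma adjusted p = 0.84), and it alone of the 51 lay above all of them, against 5.7% of all genes. CDKN2A and CDC25B, a phosphatase that activates CDKs, followed at 0.25 and 0.23 (limma adjusted p = 0.84 for both). Of the wider lists, 27 of 28 replication genes and 33 of 36 mitosis genes had log2 fold changes below 0, and none was called.

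With both changes, tumors again had higher CDKN1A and, on average, lower mitosis and S phase genes than control tumors. Tumor 3 of this group was within the control range in its mean levels of both gene groups, and no call held in every fit that left out 1 mouse. In HNF4G-KO + FOXA1-OE tumors 8 of 51 genes were called: CDKN1A rose, and CENPA, CCNB1, CCNB2 and CDC25C of the mitosis genes and MCM6, RRM2 and MCM5 of the S phase genes fell. The shares among all genes were 4.7% called, 2.14% higher and 2.55% lower. All 12 S phase genes and all 18 mitosis genes had log2 fold changes below 0, with a median of -0.56 in either group, while the median was -0.41 over the 51 genes and -0.06 over all genes. This comparison shares its control tumors with that of the tumors labeled HNF4G-KO, and the 2 sets of values stand here side by side without a test of likeness.

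CDKN1A was at 127, 73.0, 59.0, 50.8 and 84.0 RPKM in HNF4G-KO + FOXA1-OE tumors 1 to 5, each above the highest control tumor at 34.9 RPKM (log2 fold change 1.45, standard error 0.26, limma adjusted p = 0.00805). CCNB1 was at 56.8, 41.7, 73.5, 60.4 and 38.6 RPKM, each below the lowest control tumor at 89.1 RPKM (log2 fold change -0.87, standard error 0.17, limma adjusted p = 0.0124). CENPA was at 7.98, 8.89, 14.5, 11.6 and 7.26 RPKM beside 18.3 to 19.2 RPKM (log2 fold change -0.92, standard error 0.18, limma adjusted p = 0.0127). Tumor 3 was the nearest to the control tumors and tumor 5 the furthest for both mitosis genes. RRM2 was at 20.9, 19.6, 21.6, 21.5 and 15.1 RPKM (log2 fold change -0.79, limma adjusted p = 0.0143), and MCM6 at 13.2, 11.2, 17.2, 13.7 and 7.42 RPKM beside 20.3 to 23.9 RPKM (log2 fold change -0.87, limma adjusted p = 0.0321). CCNB2, CDC25C and MCM5 had log2 fold changes of -0.70, -0.60 and -0.55 (limma adjusted p = 0.0189, 0.0158 and 0.035). Over all 5 tumors, 15 of the 51 genes lay below all control tumors, against 9.64% of all genes, and 1 above, against 4.88%.

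MKI67, TOP2A, CDK1, CCNE1, MCM2, CCND1 and CDKN2A overlapped with the control tumors, with log2 fold changes from -0.41 for CDKN2A to 0.12 for CCND1, and PCNA, at -0.77, lay below the control tumors without overlap but was not called (limma adjusted p = 0.278). CCNE2, called in tumors labeled HNF4G-KO alone, had a log2 fold change of 0.23 here (limma adjusted p = 0.671). In the wider lists 3 of 28 replication genes, 3 of 36 mitosis genes and 1 of 20 RB and DREAM regulators fell. Of these CHAF1B had a log2 fold change of -1.01, PTTG1 of -0.87 and CDKN2D, which encodes p19, of -0.69 (limma adjusted p = 0.00293, 0.00639 and 0.0264). All 6 stroma markers tested had log2 fold changes below 0 in this comparison (median -0.97), with sums of 63.6 to 135 RPKM in HNF4G-KO + FOXA1-OE tumors, and VIM fell (-1.16, limma adjusted p = 0.00815), and their part was not tested. Leaving out 1 mouse at a time left 1 to 8 genes called, 1 each without control tumor 2 (CDKN1A) or 3 (RRM2) and 5 without control tumor 1. Over all genes 133 to 687 were called in these fits. A fit of these 2 groups alone called none of the 51, and a replicate block on the tumor number 4, against 25 of 14343 and 344 of 14269 of all genes.

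Against FOXA1-OE tumors, which share the FOXA1 construct, HNF4G-KO + FOXA1-OE tumors had 3 called genes. CDKN1A rose, CDC25C fell, and CDKN1B, which encodes the CDK inhibitor p27, fell. All genes tested were called at 7.86%, 3.32% higher and 4.54% lower. CDKN1A stayed at or below 35.4 RPKM in every FOXA1-OE tumor and at or above 50.8 RPKM in every HNF4G-KO + FOXA1-OE tumor (log2 fold change 1.24, standard error 0.26, limma adjusted p = 0.0109). CDC25C was at 9.01, 10.0 and 7.79 RPKM in the former and at 5.90, 4.21, 6.44, 5.44 and 5.01 RPKM in the latter (log2 fold change -0.63, standard error 0.12, limma adjusted p = 0.00837). CDKN1B was at 21.7, 14.0 and 12.8 RPKM against 9.60, 8.18, 9.02, 11.1 and 7.06 RPKM (log2 fold change -0.74, standard error 0.21, limma adjusted p = 0.0448). The groups did not overlap for any of the 3. In all, 4 of the 51 genes lay below every FOXA1-OE tumor and 1 above, against 8.34% and 4.33% of all genes.

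CCNB1, CDKN2A and CDKN2C, which encodes p18, missed the threshold here, with log2 fold changes of -0.57, -0.66 and -0.67 (limma adjusted p = 0.0561, 0.0539 and 0.0617). MKI67, TOP2A, CDK1, CCNE1, MCM2, PCNA and CCND1 were not called, with log2 fold changes from -0.28 for PCNA to 0.43 for CCNE1, and E2F8 and CCNE2 had the highest values after CDKN1A, 0.49 and 0.44. The median was -0.34 over S phase genes and -0.13 over mitosis genes, beside -0.03 over all genes. In each of the wider lists 2 genes fell, led by DUT, a dUTPase, PTTG1, and CDKN1C, which encodes p57, at log2 fold changes of -0.71, -0.66 and -0.96 (limma adjusted p = 0.0363, 0.0157 and 0.012). Without FOXA1-OE tumor 3, 7 of the 51 genes were called, against 1056 of 14223 of all genes, and CDKN1A and CDC25C were called in each fit that left out 1 mouse. A fit of these 2 groups alone called none, against 86 of 14396 of all genes.

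Between tumors with FOXA1-OE added and those labeled HNF4G-KO alone, none of the 51 genes was called by limma, against 0.0561% of all genes (8 of 14269), with 7 of the 51 at an unadjusted p under 0.05, against 20.3% of all genes. The median log2 fold change of HNF4G-KO + FOXA1-OE against HNF4G-KO tumors was -0.12 over the 51 genes and -0.08 over all genes. CDK6, which like CDK4 pairs with D-type cyclins, had the lowest value (-0.70, limma adjusted p = 0.196), at 4.87 to 9.53 RPKM beside 10.0 to 12.4 RPKM. It and CDKN1B lay below all tumors labeled HNF4G-KO alone, 2 of the 51 genes against 8.37% of all genes. TYMS, MCM2, TOP2A, CDK1 and PCNA followed at -0.66, -0.64, -0.63, -0.60 and -0.53 (limma adjusted p = 0.298, 0.363, 0.34, 0.246 and 0.355). CDT1, which licenses origins with CDC6, CDC20 and AURKB had the highest values, 0.44, 0.41 and 0.39 (limma adjusted p = 0.229, 0.215 and 0.235). CDKN1A, CCNB1, CCNE1 and CDKN2A differed by 0.12, 0.06, 0.04 and -0.02, and MKI67 and CCND1 by -0.26 and 0.30, all with overlapping groups.

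The difference between the FOXA1-OE effect with and without the HNF4G-KO label was also tested, and none of the 51 genes passed, against 0.035% of all genes (5 of 14269). CDKN1B and CDKN2B had the lowest values (-0.77 and -0.75, limma adjusted p = 0.481 and 0.507), and CDC20 and KIF20A the highest (0.67 each, limma adjusted p = 0.476 and 0.826). At an unadjusted p under 0.05 were 4 of the 51, against 8.47% of all genes.

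S phase and mitosis genes were set against each other by their mean in each library. The mean of log2(RPKM + 1) over the 12 S phase genes was 4.69, 4.64 and 4.51 in control tumors and 4.33, 4.34, 4.27 and 4.23 in tumors labeled HNF4G-KO. Over the 18 mitosis genes it was 4.89, 4.94 and 4.78 against 4.46, 4.37, 4.44 and 4.42. Both means put every tumor labeled HNF4G-KO below every control tumor, and these 4 tumors lay close together.

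FOXA1-OE tumors 1 to 3 had S phase means of 4.31, 4.59 and 3.91 and mitosis means of 4.48, 4.95 and 4.19. HNF4G-KO + FOXA1-OE tumors 1 to 5 had S phase means of 4.20, 3.96, 4.56, 4.19 and 3.71 and mitosis means of 4.33, 4.30, 4.85, 4.46 and 4.09. FOXA1-OE tumor 2 and HNF4G-KO + FOXA1-OE tumor 3 thus reached the control range, and FOXA1-OE tumor 3 and HNF4G-KO + FOXA1-OE tumor 5 were the lowest of all 15 primary tumors on the mitosis mean. Across genes, the deviations of these lowest tumors had Spearman correlations with GC content of 0.29 and 0.56, beside -0.05 to 0.17 in control tumors. The part of this in their low means was not tested. HNF4G-KO + FOXA1-OE tumors 2 and 3, from the same mouse, lay further apart on both means than the lowest and highest tumors labeled HNF4G-KO.

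The S phase mean minus the mitosis mean was below 0 in all primary tumors. It was -0.30 to -0.20 in control tumors, -0.19 to -0.03 in tumors labeled HNF4G-KO, -0.36 to -0.17 in FOXA1-OE tumors and -0.37 to -0.13 in HNF4G-KO + FOXA1-OE tumors. The tumors labeled HNF4G-KO lay above the control tumors without overlap but by a small margin, tumor 4 being at -0.190 and control tumor 1 at -0.199. On these lists their mitosis genes were further below the controls than their S phase genes. The wider lists had the other order, with median log2 fold changes of -0.30 for replication and -0.19 for mitosis. Both FOXA1-OE groups spanned the control range. These means are a description without a test.

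**Figure D3:**
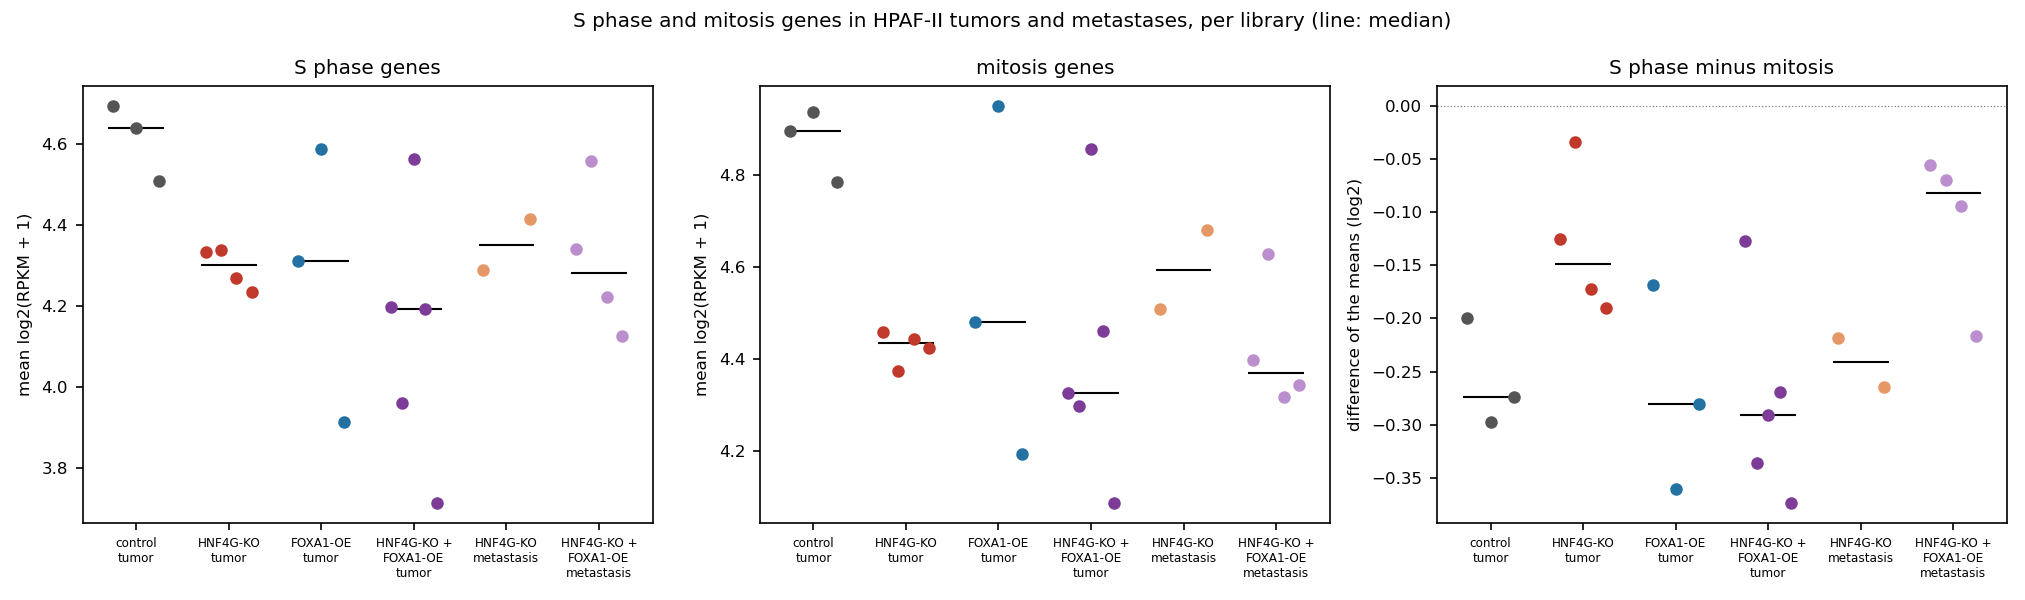
Mean log2(RPKM + 1) of the 12 S phase genes, of the 18 mitosis genes and their difference (vertical axes, not starting at 0) in each HPAF-II library by group, with a line at the group median. The 4 tumors labeled HNF4G-KO lie below the 3 control tumors on both means, and tumors of both groups with FOXA1-OE spread from near the control level to far below it.

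**Figure D4:**
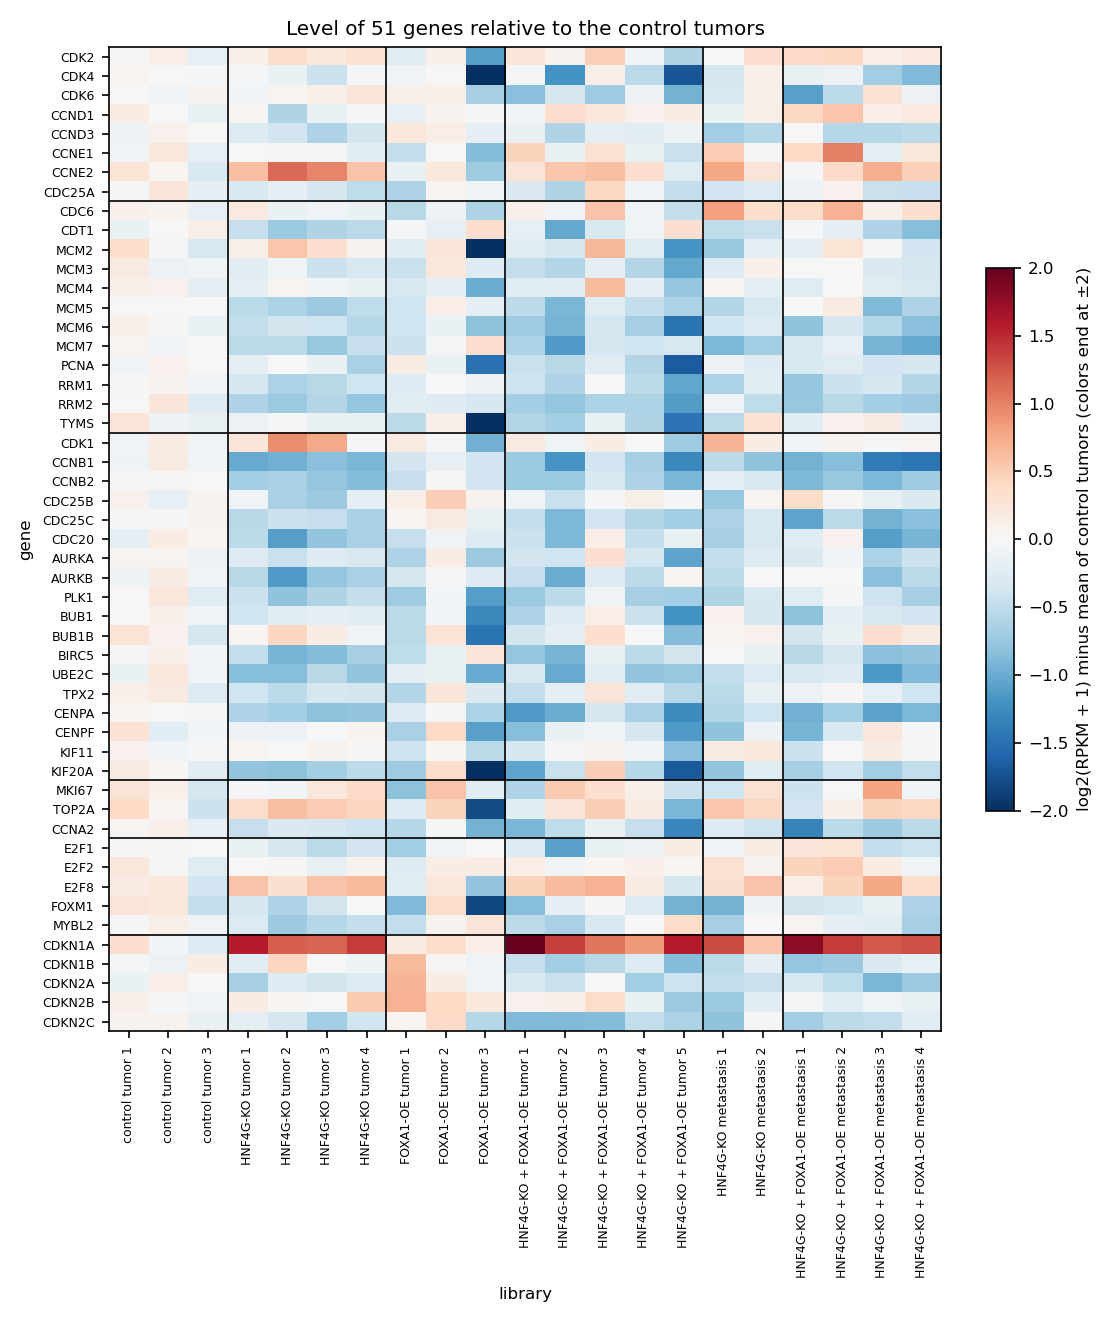
Difference in log2(RPKM + 1) of 51 genes (rows, grouped by role) from the mean of the control tumors in the 21 HPAF-II libraries (columns, grouped by sample group), in red for higher, blue for lower and with colors ending at ±2. The row of CDKN1A is red in all libraries labeled HNF4G-KO or HNF4G-KO + FOXA1-OE, and the columns of FOXA1-OE tumor 3 and HNF4G-KO + FOXA1-OE tumor 5 are the bluest.

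Between metastases and primary tumors of the same label, none of the 51 genes was called by limma. In HNF4G-KO mice 0.0426% of all genes were called (6 of 14099) and in HNF4G-KO + FOXA1-OE mice 0.00709% (1 of 14099), with 5 and 2 of the 51 genes at an unadjusted p under 0.05, against 13.4% and 9.62% of all genes. With 2 metastases against 4 tumors the exact permutation test cannot go below p = 0.133.

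In HNF4G-KO mice several mitosis genes had higher values in both metastases than in any tumor. CCNB2 was at 22.9 and 21.0 RPKM in the metastases beside 14.0 to 16.3 RPKM in the tumors. BIRC5 was at 27.8 and 25.4 RPKM beside 14.1 to 19.5 RPKM, the largest log2 fold change of the 51 genes at 0.67 (limma adjusted p = 0.24). CDC6, which loads the MCM helicase onto origins, was at 18.1 and 12.8 RPKM beside 8.86 to 11.3 RPKM (log2 fold change 0.62, limma adjusted p = 0.279). In all, 10 of the 51 genes lay above every tumor, against 11.9% of all genes, and CCNB1 was among them at 66.7 and 54.8 RPKM (log2 fold change 0.27, limma adjusted p = 0.608). MCM2 and CDKN2B lay below every tumor, 2 of the 51 genes against 21% of all genes, with log2 fold changes of -0.75 and -0.66 (limma adjusted p = 0.318 and 0.303). The CDK inhibitor CDKN1A was at 69.6 and 41.2 RPKM, with the second of these under all 4 tumors (log2 fold change -0.40, limma adjusted p = 0.598). MKI67, TOP2A, CDK1, CCNE1, PCNA, CCND1 and CDKN2A had log2 fold changes from -0.18 to 0.30. The S phase means were 4.29 and 4.41 and the mitosis means 4.51 and 4.68, the latter above those of the 4 tumors. Within the same mouse, metastases 1 and 2 differed from tumors 2 and 4 by -0.05 and 0.18 on the S phase mean and by 0.13 and 0.26 on the mitosis mean. Stroma markers summed to 86.4 and 471 RPKM in these metastases, and their part was not tested.

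In HNF4G-KO + FOXA1-OE mice no gene of the 51 had its metastases apart from the tumors, against 1.86% of all genes with higher and 0.787% with lower metastases. TYMS had the largest log2 fold change, 0.75 (limma adjusted p = 0.46), at 6.46, 8.28, 8.81 and 6.73 RPKM in metastases 1 to 4. CCNB1, at 49.4, 52.9, 35.9 and 34.6 RPKM, had with CDT1 the lowest (-0.38, limma adjusted p = 0.527), and CDKN1A, at 98.2, 74.8, 66.2 and 68.2 RPKM, differed by -0.08 (limma adjusted p = 0.916). MKI67, TOP2A, CDK1, CCNE1, MCM2, PCNA, CCND1 and CDKN2A had log2 fold changes from -0.27 to 0.44. The S phase means were 4.34, 4.56, 4.22 and 4.13, and the mitosis means 4.40, 4.63, 4.32 and 4.34. Within the same mouse, metastases 1 and 2 were above tumor 1 by 0.14 and 0.36 on the S phase mean and by 0.07 and 0.30 on the mitosis mean, while metastasis 4 differed from tumor 4 by -0.07 and -0.12. The S phase mean minus the mitosis mean was -0.22 to -0.06 in these metastases.

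In the KPC lines none of the 52 genes was called by limma between the liver metastasis line and the tumor line, against 0% of all genes (0 of 12585). At an unadjusted p under 0.05 were 109, or 0.866%, of all genes, none of them among the 52. The median log2 fold change was 0.07 over S phase genes and 0.03 over mitosis genes, beside 0.01 over all genes. Mki67 was at 49.3, 59.4, 25.2 and 75.3 RPKM in tumor line libraries 1 to 4, beside 55.9, 60.7, 31.0 and 58.2 RPKM in metastasis line libraries 1 to 4 (log2 fold change 0.03, limma adjusted p = 1). Cdkn1a was low in both lines, at 3.69 to 5.98 and 4.39 to 5.39 RPKM. Top2a, Cdk1, Ccnb1, Ccne1, Mcm2, Pcna, Ccnd1 and Cdkn2a had log2 fold changes from -0.16 to 0.08.

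The libraries numbered 3 of both lines had far lower levels of nearly all proliferation genes. In the tumor line the S phase mean was 5.27, 5.23, 3.77 and 5.21 and the mitosis mean 4.84, 4.92, 3.79 and 5.06. In the metastasis line the means were 5.17, 5.16, 4.16 and 5.26, and 4.93, 5.01, 3.90 and 4.86. Library 3 was the lowest of its line for all 12 S phase and all 18 mitosis genes in both lines, and for 47 and 46 of the 52 genes, while it was so for 39.4% and 39.5% of all genes. The median log2 difference of library 3 from the mean of the others was -1.20 over the 52 genes in the tumor line and -0.98 in the metastasis line, beside -0.06 and -0.08 over all genes. Over the 5 CDK inhibitors it was 0.14 and -0.03. Rrm2, for example, was at 91.0, 91.8, 18.5 and 85.2 RPKM in the tumor line and at 76.9, 85.2, 31.2 and 94.2 RPKM in the metastasis line. Without both libraries the comparison of the lines still called none of the 52.

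**Figure D5:**
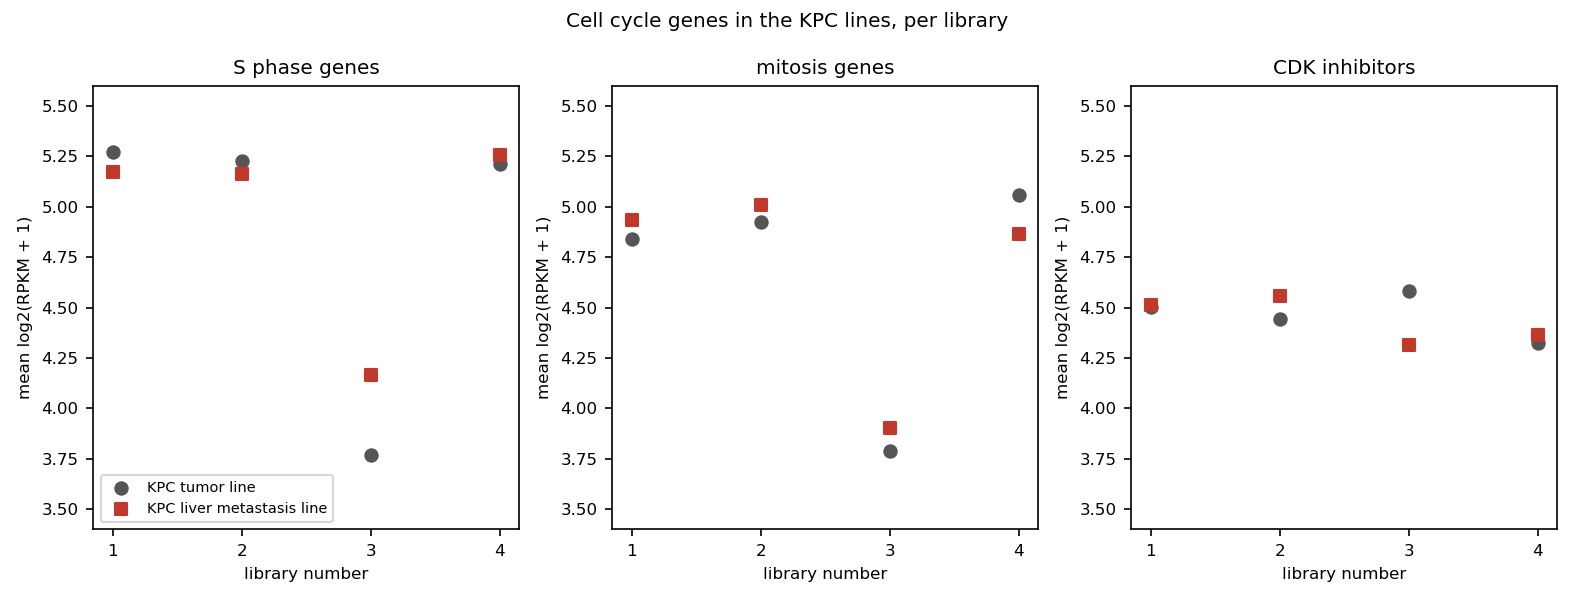
Mean log2(RPKM + 1) of the 12 S phase genes, the 18 mitosis genes and the 5 CDK inhibitors (vertical axes, from 3.4 to 5.6) in libraries 1 to 4 of the KPC tumor line (circles) and liver metastasis line (squares). Library 3 of either line lies far below the others for S phase and mitosis genes, while for the inhibitors it is the highest of the tumor line and the lowest, by a small margin, of the metastasis line.

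The difference between the lines also turned over between subsets of the libraries. Within libraries 1 and 2 alone, 17 of the 52 genes were called, 10 higher and 7 lower in the metastasis line, against 25.5% of all genes. Within libraries 3 and 4 alone none of the 52 was called, against 0.635% of all genes. Libraries that share a number were not shown to be paired, so a count of signs by number is a description. By number, 7 of the 10 and all 7 had the other sign in both 3 and 4. Ccnb1 was at 18.3, 20.4, 12.9 and 34.5 RPKM in libraries 1 to 4 of the tumor line and at 30.0, 33.5, 7.71 and 18.0 RPKM in the metastasis line, higher in the latter for numbers 1 and 2 and lower for numbers 3 and 4. In all, 26 of the 52 genes had 1 sign in numbers 1 and 2 and the other in 3 and 4. No share over all genes is at hand for these counts of signs, so they are not read as particular to the 52. The difference of the line contrast between libraries 1 and 2 and libraries 3 and 4, which pairs no libraries, was itself called for 1 of the 52 genes, Cdk4 (-0.81, limma adjusted p = 0.0429), against 20.2% of all genes. Cdk4 was at 85.7, 83.6, 86.0 and 104 RPKM in the tumor line and at 115, 108, 62.6 and 80.0 RPKM in the metastasis line.

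S phase genes stood higher relative to mitosis genes in the KPC cultures than in the HPAF-II tumors, the S phase mean minus the mitosis mean being 0.43, 0.30, -0.02 and 0.15 in the tumor line and 0.24, 0.15, 0.26 and 0.39 in the metastasis line. The tables of the 2 species were made separately and their samples differ in kind, so no test was made between them.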

How the data were processed

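RNA of 21 HPAF-II xenograft samples and 8 KPC cultures was sequenced from stranded mRNA libraries. The submitters' processing notes name the aligner STAR 2.6.1a and the read counter featureCounts 2.0.4, and the authors deposited RPKM values, in 1 table per species. In the KPC table, 12 columns that belong to no sample used here were left out. RPKM are relative to all mapped reads of a library, so a few abundant genes can lower the values of all others. Whether mouse host reads were removed from HPAF-II libraries is not given in the sources used here.

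Gene IDs were named through GENCODE v44 (human) and M21 (mouse), ignoring the version. For human reads the paper names GRCh37, and the coordinates printed are of GRCh38. log2(RPKM + 1) was analyzed with limma 3.58.1 in R 4.3.3 (eBayes with trend) over genes whose mean reached 1 RPKM, with Benjamini-Hochberg adjustment over all genes and a threshold of 0.05. Fold changes are on this scale and understate those of low genes. Primary tumors entered 1 fit, as did tumors with metastases and the KPC libraries. Samples of 1 kind from 1 mouse were averaged. Exact permutation tests used scipy 1.17.1. In all, 9 comparisons were made. The fits were tested before use on simulated data, in which 200 genes were raised by 1 on the log2 scale. Of these, 39.5% were called for FOXA1-OE against control tumors and 24.5% for metastases against tumors in HNF4G-KO mice. For the difference of the FOXA1-OE effect 10% were called, and 45% to 62.5% in the other comparisons. A gene that was not called may therefore still differ. Tumors and metastases of the same mouse deviated together weakly, with correlations from 0.02 to 0.36 over 5 pairs, and the mouse was tried as a block.

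The genes, their lists and the tests were chosen with earlier results of these data known. Named are all genes called, the 3 of largest rise and of largest fall, and MKI67, TOP2A, CDK1, CCNB1, CCNE1, MCM2, PCNA, CCND1, CDKN1A and CDKN2A, with other genes chosen after their values were seen. Alternatives were another pseudocount, no filter, samples shifted to 1 median, fits of the compared groups alone, replicate blocks, leaving out samples, and a correction for GC content and exon length.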

Additional observations from a re-analysis of the deposited data

Results flagged for a closer look

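Within groups of 4 or 5 libraries, 125 sets of values of the named genes and of the phase means were examined for a library far from the others, and 18 stood out. The sets share libraries and are not independent, so a chance rate of about 1 in 20 does not apply to their count. All but 1 of the 18 were in libraries numbered 3 of the KPC lines. In library 3 of the tumor line the S phase mean was 3.77 beside 5.21 to 5.27 in the others. There Rrm2 was at 18.5 RPKM, Top2a at 28.6, Cdk1 at 9.75, Mcm2 at 13.3, Pcna at 30.3, Aurkb at 8.22, Cdc20 at 21.8, Mcm6 at 28.4 and Ube2c at 22.8 RPKM. In library 3 of the liver metastasis line the S phase mean was 4.16 beside 5.16 to 5.26, and the mitosis mean 3.90 beside 4.86 to 5.01. There Mki67 was at 31.0 RPKM, Top2a at 38.4, Mcm2 at 18.0, Pcna at 33.8 and Cdc20 at 25.1 RPKM.

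CCNE1, cyclin E1, was at 3.89 RPKM in tumor 4 labeled HNF4G-KO, beside 4.56 to 4.69 RPKM in the other 3 tumors of that label. Cdk4 differed in its contrast of the KPC lines between library numbers 3 and 4 and numbers 1 and 2, by -0.81 on the log2 scale (limma adjusted p = 0.0429).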

How the results depend on the processing

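For HNF4G-KO against control tumors, 12 genes were called, 27 in a fit of these 2 groups alone, 12 with a replicate block on the tumor number, and 2 to 10 when 1 tumor was left out. Over all genes these fits called 1736 of 14269, 5595 of 14088 and 2235 of 14269, and 284 to 1165 when 1 tumor was left out. For HNF4G-KO + FOXA1-OE against control tumors, 8 were called, 0 in a fit of the 2 groups alone, 4 with the replicate block and 1 to 8 when 1 mouse was left out. Over all genes the counts were 670 of 14269, 25 of 14343 and 344 of 14269, and 133 to 687 when 1 mouse was left out. Against FOXA1-OE tumors, 3 were called, 0 in a fit of the 2 groups alone, 2 with the replicate block, 6 with samples shifted to the same median, and 2 to 7 when 1 mouse was left out. Over all genes the counts there were 1122 of 14269, 86 of 14396, 930 of 14269 and 1193 of 14269, and 571 to 1439 when 1 mouse was left out. In the same comparison 6 were also called with the trend on GC content and exon length removed, and 6 without FOXA1-OE tumor 3 and HNF4G-KO + FOXA1-OE tumor 5. These stand beside 1828 of 14269 and 1313 of 14099 of all genes, and both alternatives were chosen after seeing the data. The fits of the 2 groups alone use fewer samples, and the causes of the other shifts were not tested. In the KPC lines 17 genes were called in replicates 1 and 2 alone, against 25.5% of all genes. There Mcm5 (-0.36, limma adjusted p = 0.0226) and Ccnb1 (0.69, limma adjusted p = 0.00844) had the opposite sign of their values over all libraries (0.23 and -0.05). The remaining comparisons called 0 of the genes under each alternative run, the replicate block and the mouse as a block included. Samples that share a tumor number deviated with correlations from -0.53 to 0.50, and those that share a KPC number from -0.41 to 0.21. These numbers were therefore not taken to pair samples in any test except the replicate blocks run as alternatives. Outside that block, KPC numbers served only to name libraries, to split them into 2 sets and to count signs as a description. Over the single genes named, 219 called results kept direction and call under the alternatives and 94 kept direction but lost the call. Of the results not called, 1654 kept direction and stayed uncalled, and 139 changed direction without a call. A further 12 kept direction and became called, and 2 became called in the other direction.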
